A study of Mus musculus with 8 samples.

Results

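The genes described here are 9 members of the phagocyte NADPH oxidase and of the enzymes that remove its products, chosen by name: Cybb, Cyba, Ncf1, Ncf4, Rac2, Sod1, Sod2, Cat and Gpx1. Every probe with one of these symbols was taken, which gave 10 of the 25697 probes on the array and 9 of its 18138 gene symbols. All 10 member probes passed the filter on undetected probes and were among the 13868 probes tested. The samples were 8 arrays of macrophages grown from mouse bone marrow with GM-CSF (10 ng/ml) for 7 days, with 2 arrays in each of 4 groups. The mice were female, 8 weeks old and labelled C57bl/6J, and were either wild type (WT) or iNOS deficient (iNOS-/-). The methods name the latter as B6.129P2-Nos2tm1Lau/J, a line that lacks inducible nitric oxide synthase in all tissues. Cells of both genotypes were either unstimulated or M1, the latter after 6 h with LPS at 200 ng/ml and IFN-γ at 10 ng/ml. The comparisons asked how this stimulation and the loss of iNOS changed gene expression. Nothing in the labels says that the 2 arrays of a group came from separate mice or cultures, so each p-value measures the spread between these arrays.

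The NADPH oxidase is the enzyme with which phagocytes make superoxide. Its catalytic core sits in the membrane, and cytosolic subunits together with a Rac GTPase join the core when the cell is activated. Superoxide dismutases turn superoxide into hydrogen peroxide, and catalase and glutathione peroxidases then turn hydrogen peroxide into water. Nitric oxide reacts rapidly with superoxide, which ties the product of iNOS to that of the oxidase.

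Each probe on the array is a DNA strand that binds 1 stretch of a transcript, and 5 of the 10 are shown in part. Those of Sod2, Cat and Gpx1 were called on stimulation in both genotypes, and both Ncf1 probes are shown because their calls differed. The first 30 of 50 bases are given for Sod2, Cat, Gpx1 and the dimmer Ncf1 probe, and the last 30 for the brighter Ncf1 probe, written 5′ to 3′ as in the deposited annotation. Capitals mark a run of 17 bases, which was found within the brighter Ncf1 probe and in 3 other probes of the array.
Sod2 (ILMN_2650280): gcactatgactggggtgctgtagtctttat
Cat (ILMN_2826110): cccgccggagcgcagactcacgctgatgac
Gpx1 (ILMN_1241367): agaagcgtctgggacctcgtggactggtgg
Ncf1, dimmer probe (ILMN_1228585): ttagcaactaatgactagtgtcattttagt
Ncf1, brighter probe (ILMN_2829457): aacacCTCAGTGGTTAAGAGCAccagctgc
Both Ncf1 probes belong to the same transcript and start at its bases 2036 and 2178. The capitalised run is known from B2 elements, a family of short repeats in the mouse genome. It was chosen as the longest stretch of the brighter Ncf1 probe found in at least 4 of the 25697 probes, on either strand. The 4 probes that held it were those of Ncf1, Spc24, Terf2ip and Tmem70. This number was a minimum set by the search, and probes that share a shorter stretch were not counted.

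The arrays were alike in the number of probes detected, at 11833 to 12673 per array (detection p-value under 0.05). Factors from 0.813 in an unstimulated iNOS-/- array to 1.30 in a WT M1 array brought them to a common scale. These factors rested on 4773 and 4821 probes of stable rank (rank-invariant probes) in the iNOS-/- M1 arrays, against 6089 to 7680 in the others. Levels are given below as scaled intensity, in arbitrary units, and differences as log2 differences of group means. The median absolute log2 difference between 2 arrays of a group was 0.161 to 0.187, against 0.344 to 0.822 between arrays of different groups. The smallest of these distances between groups was that of unstimulated iNOS-/- to WT M1 arrays (0.344 to 0.363). All 9 macrophage markers on the array were detected on both arrays of every group, and 0 of 6 T and B cell markers in any. The levels of the macrophage markers differed between genotypes in both directions. Between M1 groups 3 were called higher and 4 lower in iNOS-/- (22.9% and 25.3% of all tested probes), from 1.45 for Cd14 to -1.29 for Csf1r. Between unstimulated groups 1 was called higher and 3 lower (16.7% and 15.4%). In these bulk samples, fewer cells of a type and less RNA per cell cannot be told apart.

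Nos2, the gene deleted in the iNOS-/- mice, did not separate the genotypes. Its probe was not detected on any unstimulated array. In M1 arrays it reached a log2 value of 7.26 ± 0.30 (SD, n = 2) for WT and 7.58 ± 0.13 (SD, n = 2) in the arrays labelled iNOS-/-, a difference of 0.32 (SE 0.32, adjusted p = 0.445 in limma). Stimulation raised it at least 27.2-fold in WT and at least 38.4-fold in the arrays labelled iNOS-/-. Whether the probe lies in the deleted part of the gene was not determined here, so Nos2 does not check the genotype labels. The name iNOS-/- below therefore stands for the arrays with that label.

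Among the 9 genes, Sod2 rose with stimulation in both genotypes, and Cat and Gpx1 fell. In M1 cells, Sod2 was 2.11-fold higher in iNOS-/- than in WT arrays, and Cat was 1.69-fold lower. This Sod2 difference was smaller under neqc and quantile normalization, and the Cat call was lost without either WT M1 array. Between the highest and the lowest group mean, the log2 range was 2.91 for Cybb, near background, 1.33 for the brighter and 0.58 for the dimmer Ncf1 probe, and 0.211 to 0.471 for Rac2, Cyba and Ncf4. Among the enzymes it was 1.86 for Sod2, 1.44 for Cat, 0.930 for Gpx1 and 0.683 for Sod1.

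**Figure D1:**
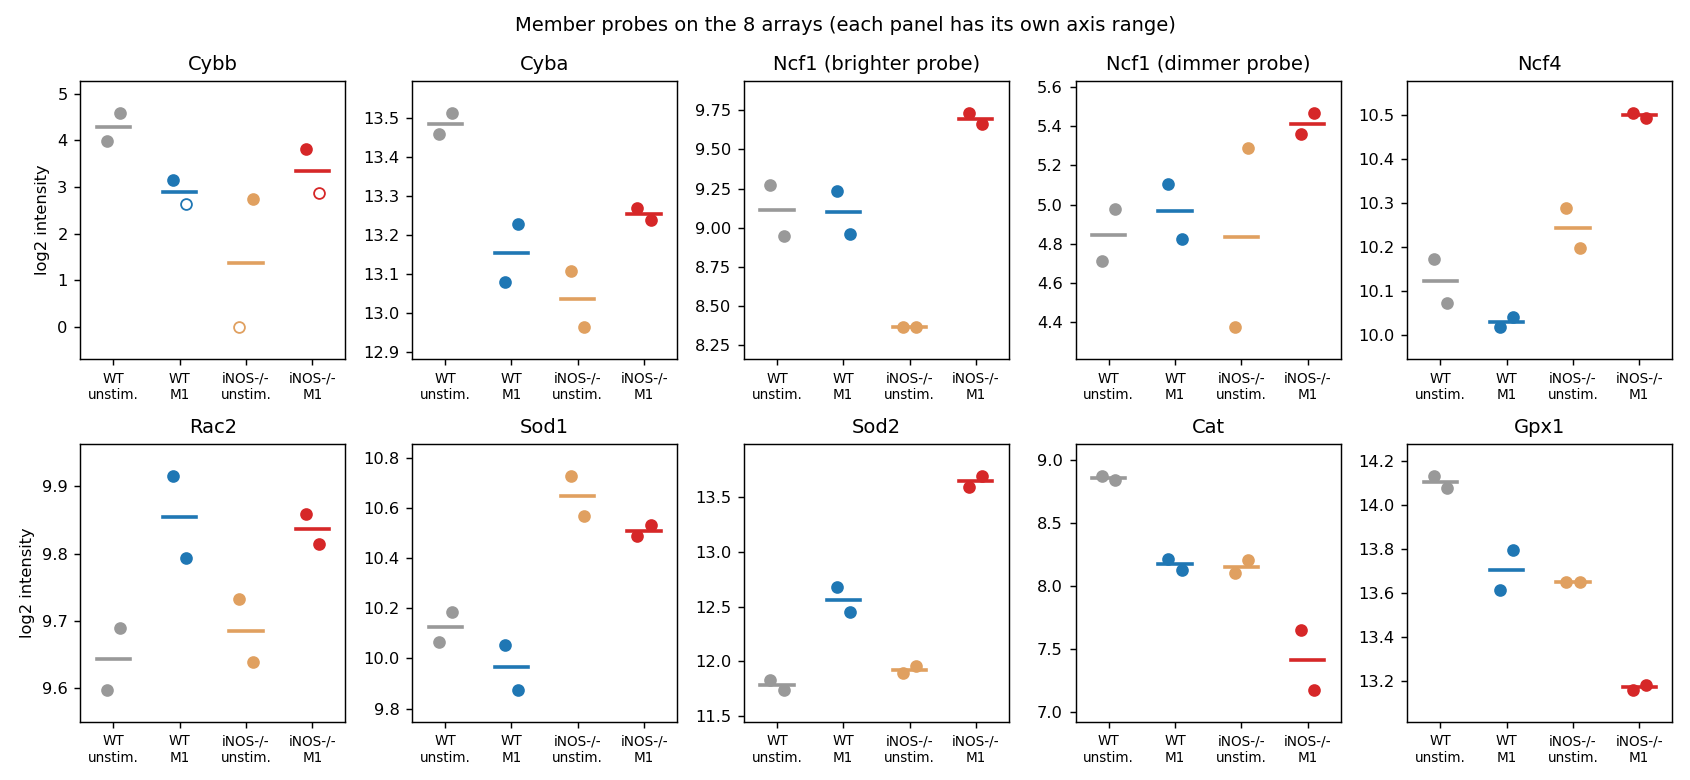
Log2 scaled intensity (vertical axis, each panel with its own range) of the 10 member probes on the 8 arrays, by group. Points are arrays, horizontal lines are group means, and open points are arrays on which the probe was not detected. Sod2 is highest in iNOS-/- M1, Cat and Gpx1 are lowest there, and Cybb has open points in 3 of 4 groups.

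Cybb encodes gp91phox, the catalytic subunit that carries electrons across the membrane. Its single probe was close to background, and was detected on 5 of 8 arrays. Scaled intensity was 15.9 and 24.0 in unstimulated WT, 8.92 and 6.25 in WT M1, -1.88 and 6.75 in unstimulated iNOS-/-, and 14.1 and 7.33 in iNOS-/- M1. The 2 unstimulated WT arrays were the highest and the groups compared did not overlap, except iNOS-/- M1 with WT M1. No difference passed the test. The log2 difference between the unstimulated groups was -2.91 (SE 0.93, adjusted p = 0.0670) and the difference in response 3.36 (SE 1.31, adjusted p = 0.0953). Both rest on an undetected array set to the floor of 1, and no size is given without the other array of that group. Under neqc they were -0.85 and 1.06 and were called, as was stimulation in WT (-0.71). With a floor of 16 they were -0.29 and 0.29, and with an intensity trend both were called (adjusted p = 0.00919 and 0.0224), as was stimulation in iNOS-/- (0.0460).

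Cyba encodes p22phox, the partner that stabilises gp91phox in the membrane. Scaled intensity was 11259 and 11692 in unstimulated WT, 8667 and 9603 in WT M1, 8831 and 7995 in unstimulated iNOS-/-, and 9876 and 9671 in iNOS-/- M1. Both unstimulated WT arrays were above all others. Cyba was lower in unstimulated iNOS-/- than in unstimulated WT arrays, by a log2 difference of -0.45 (SE 0.10, adjusted p = 0.0221). That call was lost without either array of the groups compared (adjusted p = 0.0525 to 0.103) and in the fit on these 4 arrays alone (adjusted p = 0.0578). Stimulation gave -0.33 in WT (adjusted p = 0.0517, called in 7 of 9 alternatives that kept all arrays of the groups) and 0.22 in iNOS-/- (adjusted p = 0.123), and the difference between these responses was 0.55 (SE 0.14, adjusted p = 0.0277). The last value was 0.01 and not called under both neqc and quantile normalization, where the response in iNOS-/- turned to -0.44 and -0.45. Its call also held only without WT M1 replicate 2 or unstimulated iNOS-/- replicate 1, and was lost without any 1 of the other 6 arrays (adjusted p = 0.0603 to 0.0826).

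Ncf1 encodes p47phox, the organiser that carries the cytosolic complex to the membrane after phosphorylation. On the brighter probe, scaled intensity was 619 and 494 in unstimulated WT, 602 and 498 in WT M1, 330 and 330 in unstimulated iNOS-/-, and 850 and 809 in iNOS-/- M1. The WT groups overlapped, the unstimulated iNOS-/- arrays were lowest and the iNOS-/- M1 arrays highest. Stimulation raised this probe 2.51-fold in iNOS-/- (log2 difference 1.33, SE 0.15, adjusted p = 0.00131), against -0.01 in WT (adjusted p = 0.952). The difference between these responses was 1.34 (SE 0.21, adjusted p = 0.00623), and it remained called under every scaling and without any 1 array (1.18 to 1.51).

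Between genotypes, the brighter Ncf1 probe was 1.51-fold higher in iNOS-/- than in WT M1 arrays (adjusted p = 0.0238) and 1.68-fold lower in unstimulated arrays (adjusted p = 0.0173). The M1 difference was 0.37 under quantile normalization (adjusted p = 0.123), and was lost without WT M1 replicate 2, iNOS-/- M1 replicate 1 or iNOS-/- M1 replicate 2 (0.46 to 0.64, adjusted p = 0.0673 to 0.101). The unstimulated difference was lost without WT replicate 1 or either iNOS-/- array (adjusted p = 0.0696 to 0.0783).

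The dimmer Ncf1 probe was detected on all 8 arrays, at scaled intensities of 20.8 to 44.2, and passed the test in 0 comparisons, although neqc called it higher in iNOS-/- M1 than in WT M1 arrays (0.46) and on stimulation in iNOS-/- (0.45). It was 41.1 and 44.2 in iNOS-/- M1, the highest pair, against 20.8 and 39.1 in unstimulated iNOS-/-. The difference on stimulation there was 0.58 (95% confidence interval -0.21 to 1.38), which overlaps the interval of the brighter probe (0.95 to 1.71). It was 0.12 to 1.04 when 1 array was left out, with a call at 1.04 without unstimulated iNOS-/- replicate 2 (adjusted p = 0.0182). With the mean of both probes, neither genotype difference passed the test (adjusted p = 0.0612 in M1 and 0.173 in unstimulated arrays).

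The 3 other probes that hold the capitalised 17-base run were looked up after the values of Ncf1 had been seen. All 3 were called higher in iNOS-/- M1 than in unstimulated iNOS-/- arrays, with log2 differences of 0.56 for Spc24, 1.04 for Terf2ip and 1.24 for Tmem70, against 25.2% of all tested probes called higher. All 3 were also called higher in iNOS-/- M1 than in WT M1 arrays (1.02 to 1.44, against 22.9%), and in their difference in response (0.95 to 1.49, against 19.4%). Between unstimulated groups they were not called (0.07 for Spc24, -0.05 for Terf2ip and -0.11 for Tmem70), whereas the brighter Ncf1 probe was (-0.75). On stimulation in WT, Terf2ip was called lower (-0.45, against 14.3% of all tested probes). Spc24 (-0.39), Tmem70 (-0.02) and the brighter Ncf1 probe (-0.01) were not called there. The part of the shared run in the signal of these probes was not tested.

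Ncf4 encodes p40phox, a cytosolic subunit that binds phosphoinositides on the phagosome. Scaled intensity was 1155 and 1077 in unstimulated WT, 1037 and 1054 in WT M1, 1250 and 1175 in unstimulated iNOS-/-, and 1453 and 1443 in iNOS-/- M1. The iNOS-/- M1 arrays were above all others. Ncf4 was 1.39-fold higher in iNOS-/- than in WT M1 arrays (log2 difference 0.47, SE 0.08, adjusted p = 0.00746), which held without any 1 array but fell to 0.09 and lost its call under both neqc and quantile normalization. Its other differences were not called. That on stimulation in iNOS-/- was 0.26 (adjusted p = 0.0520), was called in 5 of 9 alternatives with all arrays of the groups and turned to -0.21 under neqc. The difference in response was 0.35 (adjusted p = 0.0657), was called in 5 of 8 and turned to -0.14 under neqc.

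Rac2 encodes the Rac GTPase of blood cells that activates the oxidase. Its scaled intensity was 775 and 826 in unstimulated WT, 966 and 888 in WT M1, 851 and 797 in unstimulated iNOS-/-, and 928 and 901 in iNOS-/- M1. The M1 arrays were above the unstimulated arrays in both genotypes, but neither difference passed the test, at 0.21 in WT (adjusted p = 0.138) and 0.15 in iNOS-/- (adjusted p = 0.230). The former was called with an intensity trend (adjusted p = 0.0385). Between genotypes the M1 difference was -0.02, with a 95% confidence interval of -0.25 to 0.22. Under neqc this difference was -0.29 and was called, as was its difference in response under neqc (-0.46) and quantile normalization (-0.47).

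Sod1 encodes the cytosolic copper-zinc superoxide dismutase. Scaled intensity was 1071 and 1165 in unstimulated WT, 1064 and 939 in WT M1, 1697 and 1517 in unstimulated iNOS-/-, and 1435 and 1481 in iNOS-/- M1. All 4 iNOS-/- arrays lay above all 4 WT arrays. Sod1 was 1.46-fold higher in iNOS-/- than in WT M1 arrays (log2 difference 0.54, SE 0.11, adjusted p = 0.0118) and 1.44-fold higher in unstimulated arrays (0.52, SE 0.11, adjusted p = 0.0203). The M1 difference fell to 0.17 and lost its call under neqc and quantile normalization, and lost it without WT M1 replicate 2 (adjusted p = 0.0567) or iNOS-/- M1 replicate 2 (adjusted p = 0.0503). The unstimulated difference lost it without either WT array or iNOS-/- replicate 1 (adjusted p = 0.0583 to 0.0988). The log2 difference of Sod1 on stimulation was -0.16 in WT and -0.14 in iNOS-/-, neither called, but the latter was -0.64 and called under neqc.

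Sod2 encodes the manganese superoxide dismutase of mitochondria, a gene long known to respond to inflammatory signals. Scaled intensity was 3642 and 3424 in unstimulated WT, 6537 and 5602 in WT M1, 3810 and 3974 in unstimulated iNOS-/-, and 12353 and 13236 in iNOS-/- M1. Each M1 group was above both unstimulated groups, the iNOS-/- M1 group was above all others, and the order of the groups had no overlap. Stimulation raised Sod2 1.71-fold in WT (log2 difference 0.78, SE 0.11, adjusted p = 0.00521) and 3.29-fold in iNOS-/- (1.72, SE 0.11, adjusted p = 0.000198). These calls held without any 1 array and under every alternative tried, while the value in iNOS-/- was 1.08 under neqc and 1.09 under quantile normalization.

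In M1 cells, Sod2 was 2.11-fold higher in iNOS-/- than in WT (log2 difference 1.08, SE 0.11, adjusted p = 0.00110). Its call held without any 1 array and under each scaling, while its size fell to 0.54 under both neqc and quantile normalization. In unstimulated cells the genotype difference was 0.14 (95% confidence interval -0.14 to 0.42) and did not pass the test. The difference between the responses was 0.94 (SE 0.16, adjusted p = 0.00703). That call held without any 1 array (0.83 to 1.05), but was lost under neqc (0.34, adjusted p = 0.116) and quantile normalization (0.35, adjusted p = 0.191).

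Cat encodes catalase, the peroxisomal enzyme that breaks down hydrogen peroxide. Scaled intensity was 469 and 458 in unstimulated WT, 297 and 280 in WT M1, 274 and 295 in unstimulated iNOS-/-, and 201 and 145 in iNOS-/- M1. The unstimulated WT arrays were highest, the iNOS-/- M1 arrays lowest, and the other 2 groups overlapped between them. Stimulation lowered Cat 1.61-fold in WT (log2 difference -0.69, SE 0.17, adjusted p = 0.0292) and 1.67-fold in iNOS-/- (-0.74, SE 0.17, adjusted p = 0.0159). It was also 1.69-fold lower in iNOS-/- than in WT M1 arrays (-0.76, adjusted p = 0.0159) and 1.63-fold lower in unstimulated arrays (-0.70, adjusted p = 0.0288). The difference between the responses was -0.05 (95% confidence interval -0.65 to 0.55), and its sign turned with the median-ratio scaling (0.10).

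The calls for Cat were lost without single arrays, although none of the 4 differences between groups changed sign in any setting. The call on stimulation in WT was lost without any 1 of the 4 WT arrays or the 2 unstimulated iNOS-/- arrays (adjusted p = 0.0558 to 0.116), and so was that between unstimulated groups (adjusted p = 0.0545 to 0.125). The call on stimulation in iNOS-/- was lost without either unstimulated iNOS-/- array (adjusted p = 0.0543 and 0.0768), and the M1 call without either WT M1 array (adjusted p = 0.0718 and 0.0554). Without the detection filter, the calls on stimulation in WT and between unstimulated groups were also lost (adjusted p = 0.0580 and 0.0590).

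Gpx1 encodes the main cytosolic glutathione peroxidase. Scaled intensity was 17939 and 17286 in unstimulated WT, 12521 and 14210 in WT M1, 12852 and 12851 in unstimulated iNOS-/-, and 9167 and 9315 in iNOS-/- M1. The order of the groups was that of Cat, with WT M1 and unstimulated iNOS-/- overlapping in the middle. Stimulation lowered Gpx1 1.32-fold in WT (log2 difference -0.40, SE 0.09, adjusted p = 0.0253) and 1.39-fold in iNOS-/- (-0.48, SE 0.09, adjusted p = 0.00945). It was 1.44-fold lower in iNOS-/- than in WT M1 arrays (-0.53, adjusted p = 0.00718) and 1.37-fold lower in unstimulated arrays (-0.45, adjusted p = 0.0183).

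Of these 4 calls on Gpx1, those on stimulation in iNOS-/- and between M1 groups held without any 1 array, and both were larger under neqc (-1.12 and -1.05). The call on stimulation in WT was lost without WT M1 replicate 1 or any 1 of the 4 unstimulated arrays (adjusted p = 0.0521 to 0.108), and that between unstimulated groups without any 1 of those 4 (adjusted p = 0.0670 to 0.0869). The difference between the responses was -0.08 and not called, but was -0.64 and -0.63 and called under neqc and quantile normalization.

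**Figure D2:**
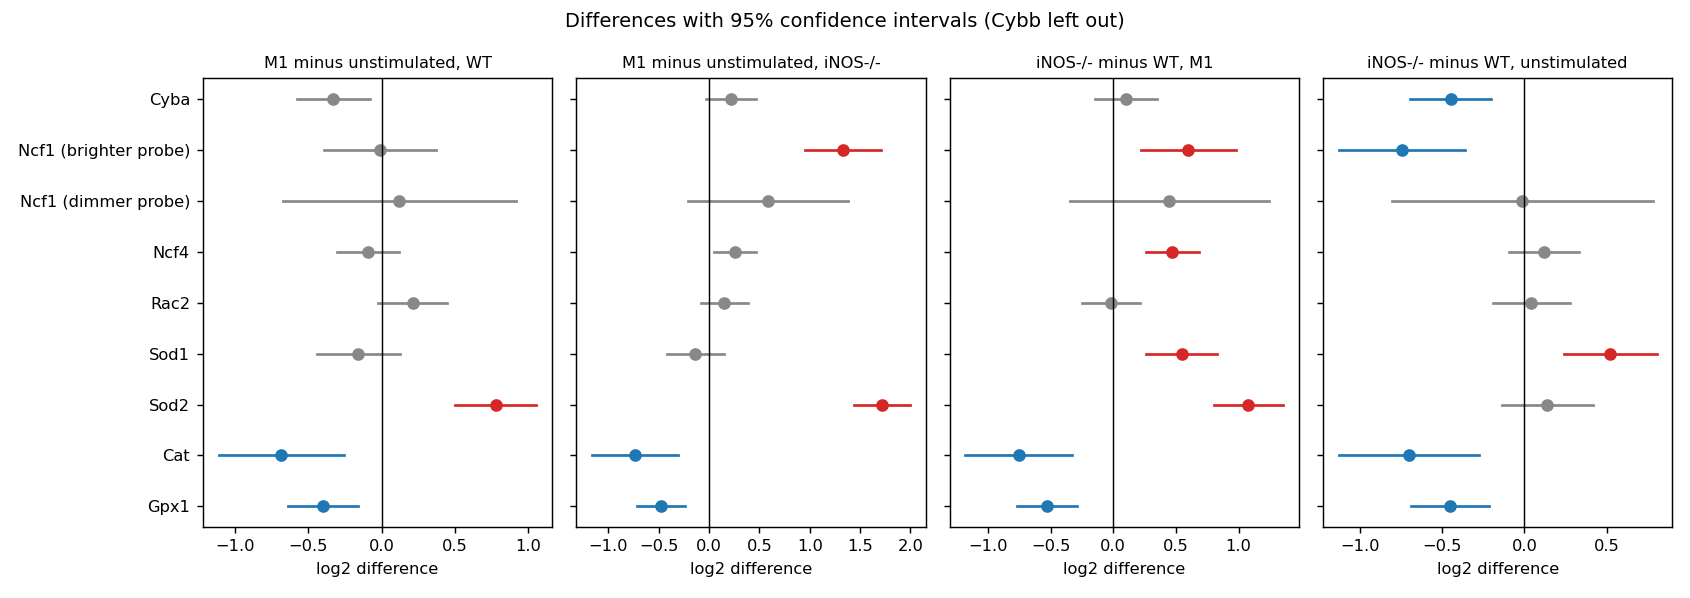
Log2 differences (horizontal axis) with 95% confidence intervals for 9 member probes (without Cybb, whose probe was near background) in the 4 comparisons of groups. Red marks called higher, blue called lower (limma, adjusted p under 0.05) and grey not called. Sod2 is red and Cat and Gpx1 blue on stimulation in both genotypes, and Cat and Gpx1 are also blue in both genotype comparisons.

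Counted over the 10 member probes, 3 were called on stimulation in WT, with 1 higher and 2 lower, against 35.1% of all tested probes (20.8% higher and 14.3% lower). In iNOS-/- arrays 4 were called on stimulation, 2 higher and 2 lower, against 50.3% (25.2% and 25.1%). Between genotypes, 6 were called in M1 arrays, 4 higher and 2 lower in iNOS-/-, against 48.2% (22.9% and 25.3%), and 5 in unstimulated arrays, 1 higher and 4 lower, against 32.2% (16.7% and 15.4%). The difference in response was called for 3, all larger in iNOS-/-, against 42.0% (19.4% larger and 22.6% smaller). In fits on the 4 arrays compared, calls were lost for Cat (both comparisons with iNOS-/- M1), Cyba and Sod1 (unstimulated groups), the brighter Ncf1 probe (M1 groups) and Gpx1 (stimulation in WT), with adjusted p of 0.0549 to 0.0866. The count for unstimulated arrays was 0 without WT replicate 1 or iNOS-/- replicate 1, with 5 and 6 probes at an unadjusted p under 0.05 in limma, and 1 without WT replicate 2.

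The groups compared did not overlap for 8 member probes on stimulation in WT, 10 in iNOS-/-, 8 between M1 groups and 8 between unstimulated groups. Over all tested probes the corresponding shares were 71.3%, 77.2%, 74.8% and 69.8%. The median log2 difference of the members was -0.13 on stimulation in WT, 0.24 in iNOS-/-, 0.44 between M1 groups and -0.23 between unstimulated groups, while that of all tested probes was 0.09, 0.00, -0.03 and 0.00. The 4 comparisons share arrays in pairs, so their results are not independent.

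Under neqc or quantile normalization, the M1 differences of Cyba, Ncf4, Rac2, Sod1, Sod2 and Gpx1 all lay lower than in the main scaling, with Cyba at -0.38 in place of 0.10. That of the brighter Ncf1 probe also fell under quantile normalization, as given above. Cat stayed between -0.66 and -0.76. The median M1 difference of all tested probes was -0.03 to 0.06 under the 4 scalings.

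**Figure D3:**
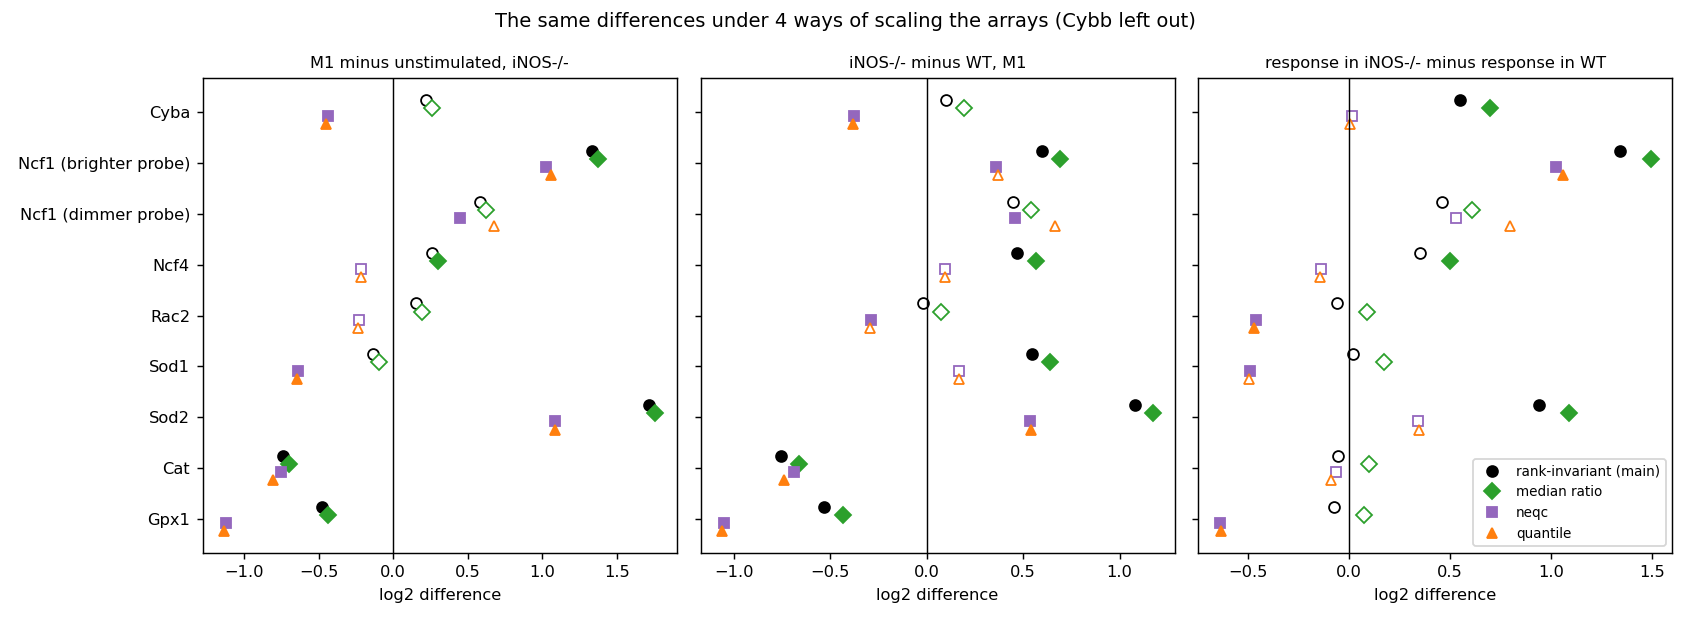
Log2 differences (horizontal axis) of 9 member probes under 4 ways of scaling the arrays, for stimulation in iNOS-/-, genotype in M1 cells and the difference in response. Filled symbols were called in limma and open ones were not. Cyba and Rac2 change sign between scalings in the first and second panels and Ncf4 in the first, while Sod2, Cat and Gpx1 keep theirs there. In the third panel Cat, Gpx1, Rac2, Ncf4 and Sod1 change sign, and Sod2 does not.

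For Sod2, the 3 genes with the most similar pattern over the 8 arrays were Top1, Itga5 and Fas, among 9687 probes detected on every array. After each gene was centred on its own mean, their mean absolute log2 difference from Sod2 was 0.0710, 0.0715 and 0.0794. For Cybb, the corresponding genes were Rhoc, 9030425E11Rik and Arhgap6, at 0.487, 0.556 and 0.558. The Cybb probe itself was near background, detected on 5 of 8 arrays, and its pattern includes an array set to the floor.

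Beyond the members, 24 partners and relatives of the oxidase were listed, such as other catalytic subunits, Rac1 and kinases that act on the complex. Of these, 19 were on the array and 12 were tested. Stimulation in WT raised 7 and lowered 2 (20.8% and 14.3% of all tested probes), while in iNOS-/- it raised 1 and lowered 4 (25.2% and 25.1%). Between M1 groups 3 were higher and 6 lower in iNOS-/- (22.9% and 25.3%), with a median of -0.55 against -0.03 for all tested probes. Between unstimulated groups 7 were higher and 3 lower (16.7% and 15.4%). In the difference in response 1 was called higher and 8 lower (19.4% and 22.6%), with a median of -0.72 against -0.05. No median of this list changed sign under another scaling, although 8 members under neqc and 7 under quantile normalization fell on stimulation in iNOS-/-.

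Pak1, a kinase activated by Rac, was 2.91-fold higher on stimulation in WT but 2.45-fold lower in iNOS-/-. The former log2 difference of 1.54 was 0.97 under neqc. Pak1 was also 3.90-fold higher in unstimulated iNOS-/- than in unstimulated WT arrays, and 1.83-fold lower in M1 arrays. Its mean scaled intensity was low, at 25.4 in unstimulated WT, 73.3 in WT M1, 98.5 in unstimulated iNOS-/- and 40.2 in iNOS-/- M1. Pik3cg, the catalytic subunit of phosphoinositide 3-kinase gamma, was 3.17-fold higher in unstimulated iNOS-/- than in unstimulated WT arrays, and 1.75-fold higher in M1 arrays.

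Other enzymes of superoxide and peroxide removal numbered 15 on the array, of which 10 were tested. Of these 10, stimulation in WT raised 1 and lowered 3, against 20.8% and 14.3% of all tested probes, with a median of -0.26 against 0.09. In iNOS-/- it raised 3 and lowered 4, against 25.2% and 25.1%, with a median of 0.01 against 0.00. Between M1 groups 2 were higher and 4 lower in iNOS-/-, against 22.9% and 25.3%, and between unstimulated groups 1 was higher and 2 lower, against 16.7% and 15.4%. The median M1 difference was 0.07, but -0.38 under neqc and quantile normalization, where that on stimulation in iNOS-/- was -0.42 and -0.45. Gpx3, the secreted glutathione peroxidase, was 6.20-fold lower in unstimulated iNOS-/- than in unstimulated WT arrays and 2.44-fold lower in M1 arrays. Stimulation lowered it 3.69-fold in WT and 1.45-fold in iNOS-/-, and the latter call was lost without unstimulated iNOS-/- replicate 1 (adjusted p = 0.0741) or iNOS-/- M1 replicate 1 (adjusted p = 0.0641).

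Prdx5, a peroxiredoxin of mitochondria and peroxisomes, rose 2.39-fold on stimulation in iNOS-/- and was 2.38-fold higher in iNOS-/- than in WT M1 arrays. Both log2 differences were 1.25, against 0.56 and 0.70 under neqc. Prdx1, a cytosolic peroxiredoxin, rose 1.78-fold on stimulation in iNOS-/- (log2 difference 0.83, or 0.29 under neqc and quantile normalization). Its M1 difference of 0.41 was called, but turned to -0.03 under neqc and quantile normalization.

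Genes of glutathione and thioredoxin recycling, which restore the reducing power of these enzymes, numbered 18, with 17 on the array and 16 tested. Of these 16, stimulation in WT raised 2 and lowered 5, against 20.8% and 14.3% of all tested probes, with a median of -0.06 against 0.09. In iNOS-/- it raised 3 and lowered 7, against 25.2% and 25.1%, with a median of -0.38 against 0.00. Between M1 groups 3 were higher and 7 lower in iNOS-/-, against 22.9% and 25.3%, with a median of -0.39 against -0.03. Between unstimulated groups 1 was higher and 4 lower, against 16.7% and 15.4%. Msrb2, a mitochondrial methionine sulfoxide reductase, fell 8.89-fold on stimulation in iNOS-/- and was 7.77-fold lower in iNOS-/- than in WT M1 arrays. Its scaled intensity in iNOS-/- M1 arrays was low, at a mean of 15.2, and the log2 differences of -3.15 and -2.96 were -2.26 and -2.03 under neqc. Idh1, a cytosolic source of NADPH, was 5.91-fold lower in iNOS-/- than in WT M1 arrays. Txnrd1, the cytosolic thioredoxin reductase, rose 3.73-fold on stimulation in iNOS-/- and was 2.57-fold higher in iNOS-/- than in WT M1 arrays.

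Summed markers of other cells moved with the same groups, although single markers differed. The summed scaled intensity of 7 dendritic cell markers was 393 to 443 in unstimulated WT, 6175 to 6304 in WT M1, 4336 to 4467 in unstimulated iNOS-/- and 19050 to 20146 in iNOS-/- M1, with 6 of 7 detected on both arrays of every group and Flt3 on no array. Il4i1 made up most of this sum in 3 groups, with a mean of 75.7 in unstimulated WT, 4583 in WT M1, 3438 in unstimulated iNOS-/- and 13817 in iNOS-/- M1. Itgax was 192, 253, 252 and 187 in the same order, and so did not follow the sum. The sum of 10 granulocyte markers was 1133 to 1175, 1423 to 1529, 1693 to 1759 and 3883 to 4019 for these groups, with Mpo and Retnlg not passing the filter. S100a8 made up most of this sum, with means of 926, 1130, 1369 and 2892. S100a9 rose in the same order (-0.48, 143, 222 and 728), and Ltf, Camp and Ngp were also highest in iNOS-/- M1. Mmp8 (184, 55.7, 74.4 and 72.7) and Mmp9 (23.2, 22.8, 14.1 and 23.1) did not follow the sum. Several of these markers are also made by activated macrophages. Their part in the differences of the oxidase and antioxidant genes was not tested.

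The sequences before the start sites of Sod2 and Ncf1 are shown because these were the members with a probe called higher on stimulation in iNOS-/- cells. For Ncf1 this was only the brighter probe, which holds the run shared with other probes. The dimmer Ncf1 probe gave a log2 difference of 0.58 there and was not called. They come from RefSeq on GRCm38.p6, are the 250 bases upstream of the start, and are written 5′ to 3′ on the gene's strand. Capitals mark TTCNNNGAA, the letters of a gamma-activated site.
Sod2, chr17:13007589-13007838, plus strand: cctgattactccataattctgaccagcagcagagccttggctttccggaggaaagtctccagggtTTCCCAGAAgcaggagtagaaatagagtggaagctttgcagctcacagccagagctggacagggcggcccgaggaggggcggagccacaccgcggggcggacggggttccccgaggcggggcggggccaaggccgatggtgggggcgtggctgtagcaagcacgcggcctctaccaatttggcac
Ncf1, chr5:134229626-134229875, minus strand: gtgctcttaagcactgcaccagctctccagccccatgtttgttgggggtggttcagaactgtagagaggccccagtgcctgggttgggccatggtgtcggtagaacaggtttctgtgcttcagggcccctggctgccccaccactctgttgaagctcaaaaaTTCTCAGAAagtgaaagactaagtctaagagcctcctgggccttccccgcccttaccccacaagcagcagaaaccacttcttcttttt
Windows of 300 bases, from 250 before to 50 after the start, matched 7 of the 9 members, the exceptions being Ncf4 and Rac2. On either strand, TTCNNNGAA was present in 2 of these 7, Sod2 and Ncf1, and in 8.30% of 32851 windows. GAAANNGAA, within the core of an interferon-stimulated response element, was present in Ncf1, where it overlaps the former, and in Cybb, against 8.56% of windows. GGGCGG, the GC box, was present in 6 of 7, all but Cybb, against 35.7%. TGACNNNGC, the core of an antioxidant response element, was present in Sod1 alone, against 12.4%. Such matches describe letters only.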

How the data were processed

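The authors deposited bead-averaged intensity values and a detection p-value for each probe and array, which the submitters' processing notes credit to GenomeStudio, with limma 3.14.4 for later steps. The labels name the MouseRef-8 array in one place and the MouseWG-8 array in another. The deposited intensity of undetected probes lies around 0, so no background was subtracted. Arrays were brought to the scale of the mean array by a robust slope (rlm in MASS 7.3.60.0.1, no intercept) over rank-invariant probes. Values under 1 were set to 1 and log2 was taken. Probes detected on at least 2 arrays were kept. The 8 arrays were fitted together, with 1 mean per group, in limma 3.58.1 (R 4.3.3), and p-values were adjusted after Benjamini and Hochberg over 13868 probes. A call is an adjusted p under 0.05. A probe undetected in a group was given as a bound, the brighter group's mean against the higher of its own value and the lowest detected value per array.

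The members and gene lists were chosen with earlier results of these data known. From each list, the 3 genes with the largest called difference are named with values, apart from 1 that is not reported here. Of the value columns, 0 lacked a sample. Replicate numbers were checked for pairing. Alternatives were a floor of 16, neqc, no detection filter, quantile normalization, detection on all 8 arrays, a fit on the 4 arrays compared, a replicate block, an intensity trend, leaving out each array and the mean of both Ncf1 probes. Scaling by the median ratio of rank-invariant probes was added after the data had been seen. The number of arrays limits the precision. In data simulated for the M1 genotype comparison (13868 probes), 4 of 50 probes changed by a log2 difference of 0.5 were called, 79 of 100 changed by 1 and 48 of 50 changed by 2. No other probes were changed there, whereas 48.2% of tested probes were called in the data. Adjusted p-values depend on that share, so these rates do not carry over to the data. Genes carry the symbols of the array's annotation, and the genome build of the probe coordinates is not given in the sources used here.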

Additional observations from a re-analysis of the deposited data

Results flagged for a closer look

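The response to stimulation differed between the genotypes for 3 member probes by a test of the difference itself (limma, adjusted p under 0.05). The log2 response in iNOS-/- minus that in WT was 0.55 for Cyba, 1.34 for the brighter Ncf1 probe and 0.94 for Sod2. For Cyba the 2 responses had opposite signs, at -0.33 in WT and 0.22 in iNOS-/-, and neither was called alone. The value for Cyba was 0.01 and not called under neqc and quantile normalization, and its call was lost with a replicate block and without any 1 of 6 arrays. For Ncf1 the response in WT was -0.01, and the dimmer probe gave a difference of 0.46 (adjusted p = 0.453). For Sod2 both responses were called and of the same sign, and the call on their difference was lost under neqc (0.34) and quantile normalization (0.35). Of all tested probes, 42.0% were called in this comparison.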

How the results depend on the processing

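Over the 10 member probes and 5 comparisons, 697 of 840 values under an alternative kept their direction and their side of the threshold, 66 lost and 38 gained a call, and 39 changed sign. The number of member probes called under neqc, and likewise with an intensity trend, was 5 for stimulation in WT, 7 for stimulation in iNOS-/- and 5 for the difference in response, in place of 3, 4 and 3. The fit on the 4 arrays compared called 3 in place of 5 between unstimulated groups. Leaving out 1 array gave 1 to 3 for stimulation in WT, 3 to 5 in iNOS-/-, 3 to 6 between M1 groups (3 without WT M1 replicate 2), 0 to 5 between unstimulated groups and 2 to 3 for the difference in response. Signs turned under neqc and quantile normalization, respectively, for Cyba between M1 groups (-0.38 and -0.38) and on stimulation in iNOS-/- (-0.44 and -0.45), and for the dimmer Ncf1 probe on stimulation in WT (-0.078 and -0.12). They turned likewise for Ncf4 and Rac2 on stimulation in iNOS-/- (-0.21 and -0.22, and -0.23 and -0.24), for Ncf4 and Sod1 in the difference in response (-0.14 and -0.14, and -0.49 and -0.49), and for Prdx1 between M1 groups (-0.035 and -0.033). With the median ratio they turned for Cat, Gpx1 and Rac2 in the difference in response (0.10, 0.076 and 0.091) and for Rac2 between M1 and between unstimulated groups (0.076 and -0.015), and with the mean of both Ncf1 probes on stimulation in WT (0.053). The cause was not tested. Without 1 array, the ranges that crossed 0 were those of the difference in response for Cat (-0.29 to 0.19), Gpx1 (-0.17 to 0.016), Rac2 (-0.12 to 0.00083) and Sod1 (-0.067 to 0.11). The others were Cybb (-0.027 to 0.91) and Rac2 (-0.079 to 0.042) between M1 groups, the brighter (-0.18 to 0.15) and dimmer (-0.019 to 0.26) Ncf1 probes on stimulation in WT, and the dimmer Ncf1 probe (-0.47 to 0.44) and Rac2 (-0.0058 to 0.089) between unstimulated groups.

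Of the calls on all tested probes for stimulation in WT, 59.3% were higher, against 44.4% under neqc, 47.5% under quantile normalization and 48.3% with the median ratio. The median of all tested probes in that comparison moved from 0.09 to -0.04, -0.06 and -0.02, respectively. It moved from 0.00 to -0.13 under quantile normalization for stimulation in iNOS-/-, and from -0.05 to 0.10 with the median ratio for the difference in response.

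Arrays with the same replicate number did not deviate together (correlations of -0.04 to 0.02 over 6 pairs of groups). With a replicate block, 3 member probes were called for stimulation in WT, 4 in iNOS-/-, 6 between M1 groups, 5 between unstimulated groups and 2 for the difference in response, where Cyba lost its call (adjusted p = 0.0543). No other call of a member probe changed with the block.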
